A study of Mus musculus with 10 samples.

Results

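The cytosolic ribosomal protein genes encode the protein part of the ribosome that translates nuclear-encoded mRNA. They were taken by name, as the rows whose symbol is Rpl or Rps with a number and at most a final a or x, together with Rplp0, Rplp1, Rplp2 and Rpsa, with pseudogenes left out. This gave 76 genes of 30319 named rows, 46 of the large subunit and 30 of the small subunit. No expression value entered the choice. The rule leaves out, for example, Rps3a1, Fau and Gnb2l1, whose products also sit on the ribosome.

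Whole subcutaneous mammary adipose tissue was taken from the inguinal region of female mice of strain FVB, and its total RNA was sequenced after depletion of ribosomal RNA. Mice were wild type or FAP-/-, lacking fibroblast activation protein (a cell-surface protease of fibroblasts), and ate a diet with 10% or 60% of its energy from fat from 12 to 30 weeks of age. The 4 groups were wild type on the low-fat diet (WT_LFD, n = 2), FAP-/- on the low-fat diet (Null_LFD, n = 3), wild type on the high-fat diet (WT_HFD, n = 2) and FAP-/- on the high-fat diet (Null_HFD, n = 3). The study calls the samples biological replicates without saying whether a library came from 1 mouse or a pool, so the p-values below measure only the spread between these libraries.

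Ribosomal proteins are needed in equal numbers, because each ribosome holds a single copy of nearly all of them, and only the stalk proteins P1 and P2 are present in more. Their mRNAs begin with a run of pyrimidines, the terminal oligopyrimidine or TOP motif, through which the kinase complex mTORC1 and the RNA-binding protein Larp1 set how strongly they are translated. That control acts on translation, so mRNA levels do not measure it. Ribosomal protein genes have also left many processed pseudogenes in mammalian genomes, some nearly identical to the parent mRNA.

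The defining markers of the labelled tissue were present. The 10 markers of mature adipocytes summed to between 16843 and 49745 TPM (a level scaled for transcript length and library), and the 12 markers of luminal mammary epithelium to between 346 and 3209 TPM. Fap itself lay between 37.7 and 68.8 TPM in the wild-type libraries and between 18.3 and 38.4 TPM in the FAP-/- libraries, so its mRNA was lower but not absent, and the groups overlapped on the high-fat diet. The 16 lymph node markers, all of them in the file, summed to 23.7 to 46.1 TPM in 8 libraries, 1234 TPM in WT_HFD 2 and 3354 TPM in Null_HFD 3. The B-cell gene Cd79a showed the same contrast, with at most 1.9 TPM in those 8 libraries against 63.2 and 153 TPM. In a bulk sample, fewer cells of a type and less RNA per cell cannot be told apart.

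The ribosomal protein genes together held 5.99% and 5.53% of all TPM in the WT_LFD libraries. They held 6.82%, 8.84% and 8.83% in Null_LFD, 7.26% and 9.82% in WT_HFD, and 6.25%, 6.02% and 14.5% in Null_HFD. Null_HFD 3 stood far above its group, and the library with the second-highest share was WT_HFD 2. These are the same libraries that carried lymph node markers. Without them, the ribosomal share was 7.26% in the remaining WT_HFD library and 6.13% on average in Null_HFD. The Null_HFD value then lay below every Null_LFD library. The part that lymph node tissue played in the share was not tested.

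**Figure D1:**
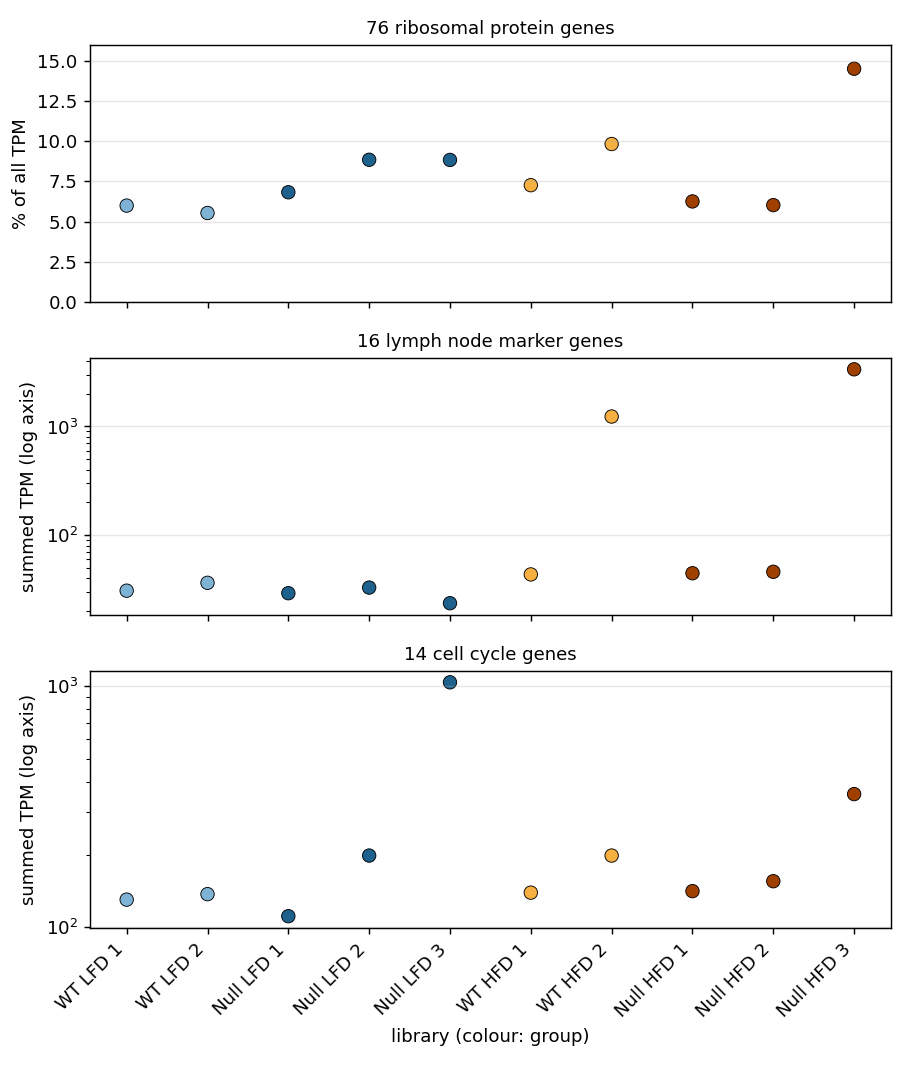
Share of all TPM held by the 76 ribosomal protein genes (top, percent), and summed TPM of 16 lymph node marker genes (middle) and 14 cell cycle genes (bottom), both on log axes, with 1 point per library coloured by group. Null_HFD 3 is highest for ribosomal protein genes (14.5%) and lymph node markers (3354 TPM), and Null_LFD 3 is highest for cell cycle genes (1035 TPM).

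Single genes followed the same order of libraries. Null_HFD 3 was the highest library for 71 of the 75 genes that passed the expression filter (at least 1 TPM in at least 2 libraries), and WT_HFD 2 was the second for 38. WT_LFD 2 was the lowest for 42 and WT_LFD 1 for 13. Each gene's log2 level correlated with the median of all 75 over the 10 libraries at a median Pearson r of 0.940, given as a description because the libraries are few and Null_HFD 3 lies apart. For 55 genes r was above 0.9. The 2 below 0.5 were Rpl32 (r = -0.071) and Rps27 (r = 0.495).

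Among the 9605 genes averaging 10 TPM or more that are neither members nor copies, those most like the ribosomal median over the 10 libraries were Emb (r = 0.993), Rps3a1 (0.984), Zfp622 (0.981), Nphs1 (0.978) and Parp8 (0.976). Rps3a1 is itself a ribosomal protein gene of the small subunit that the name rule missed, and it ran from 993 TPM in Null_HFD 2 to 2311 TPM in Null_HFD 3. Zfp622 encodes a factor of late large-subunit assembly and ran from 8.93 TPM in WT_LFD 2 to 22.2 TPM in Null_HFD 3.

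**Figure D2:**
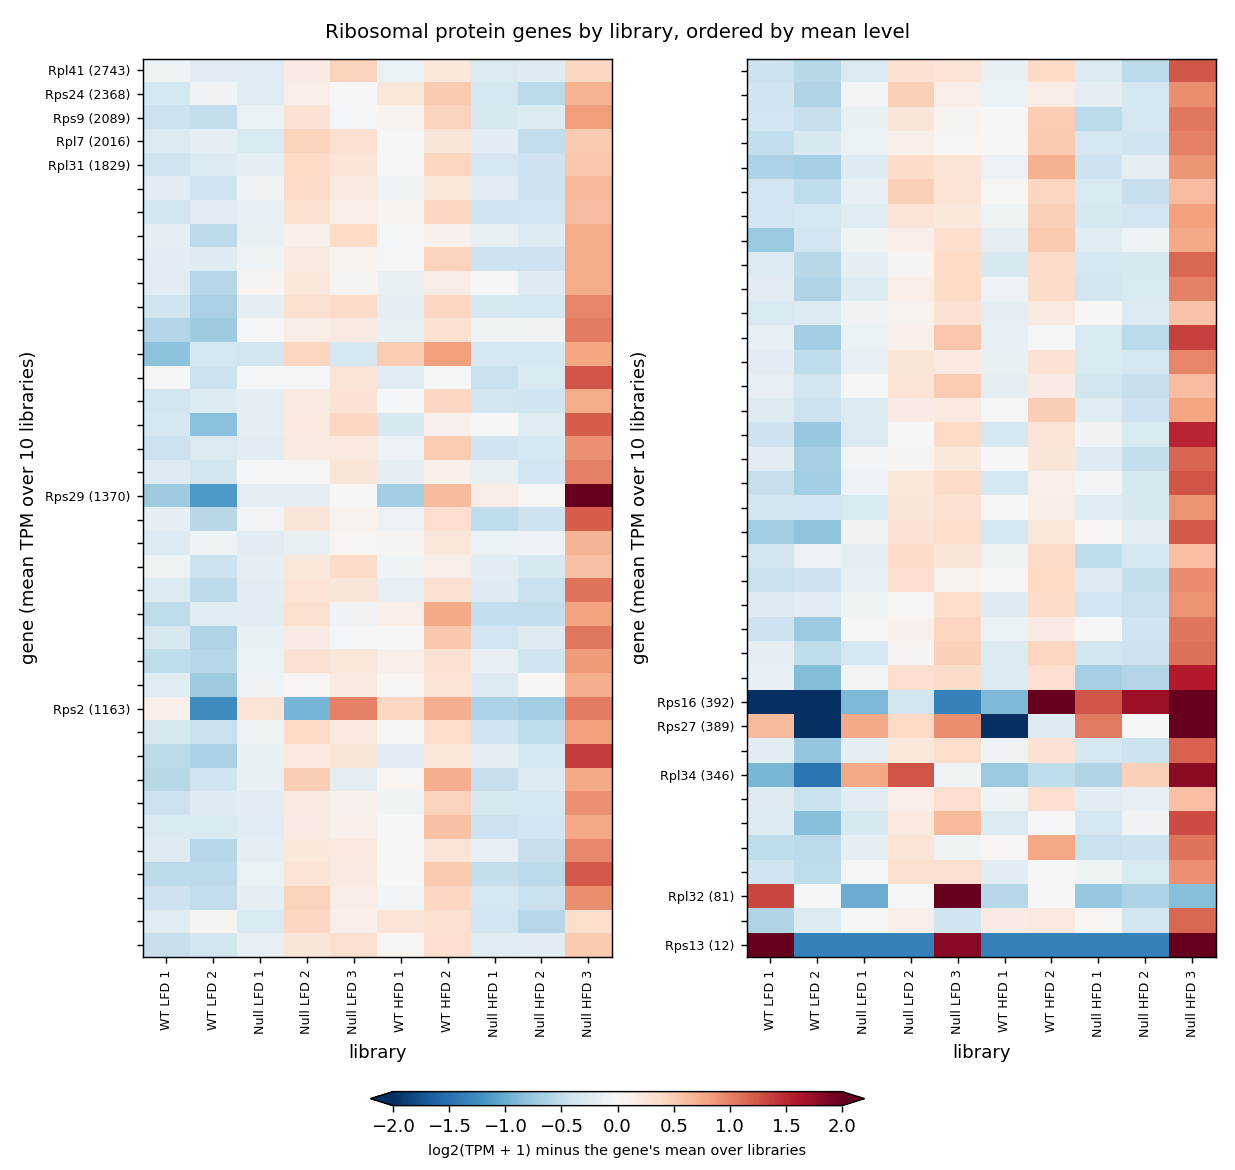
Level of 75 ribosomal protein genes in each library, as log2(TPM + 1) minus the gene's mean over the 10 libraries (red higher, blue lower, colour limits at 2 units either way), ordered by mean level from top left to bottom right, with names for the 5 highest genes and those that vary most around the family, and their mean in TPM. Null_HFD 3 is red in nearly every row and the WT_LFD libraries are mostly blue, while Rps16, Rps27, Rpl34, Rps2, Rpl32 and Rps13 break the pattern.

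Although the proteins are made in equal numbers, the deposited mRNA levels were not equal. The median gene had a mean of 968 TPM, and 69 of the 76 exceeded 100 TPM in every library. The 5 highest were Rpl41 (mean 2743 TPM), Rps24 (2368), Rps9 (2089), Rpl7 (2016) and Rpl31 (1829). Rpl41, which encodes the smallest ribosomal protein at 25 codons, was between 2200 and 3690 TPM and varied less than most, with its highest library 1.68 times its lowest. The 4 lowest above 0 were Rps13 (11.6 TPM), Rps7 (31.5), Rpl32 (80.6) and Rpl37 (170). Rps12, a protein of the small subunit head, was listed at exactly 0 in all 10 libraries.

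Such low values have to be read beside the copies of each gene. In the median member, 95.1% of the 31-base stretches of the coding sequence also occur in some other annotated transcript, and 49 members share over 90%. Under 10% is shared by 3 members, Rps9 (0%) and Rps3 (1.57%) among them. The file holds 243 rows whose transcript has at least 50% of its 31-base stretches within a member, belonging to 65 members, and 48 of these rows average at least 10 TPM. A short read from such a stretch fits both rows, so the level given to either is uncertain.

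Rps12 is the clearest case. The row Rps12-ps3 (annotated in GENCODE M21 as protein coding, GRCm38 chr19:59322290-59322783) carries the 396-base coding sequence of Rps12 with 0 differences and was listed at 868 to 3043 TPM. Rps12l1, a processed pseudogene at chr7:56014016-56014414, is also identical over those bases. It was listed at 1524 and 2544 TPM in the WT_HFD libraries but at 0.0447, 2.1 and 2.79 TPM in the Null_HFD libraries. Rps12 with its 4 copies summed to 1561 and 1950 TPM in WT_LFD, 1460, 3580 and 2105 in Null_LFD, 3043 and 3995 in WT_HFD, and 1395, 1114 and 3315 in Null_HFD. The sum placed Rps12 among the high genes, with a mean of 2352 TPM, and its highest library was WT_HFD 2.

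In Rps7, Rpl34, Rps25 and Rpl35 also, the copy held more than the gene. Copies carried 97.5% of the sum for Rps7 (nearly all in the pseudogene Gm6472, chrX:152909505-152910155), 68% for Rps25, 66.2% for Rpl34 (in Rpl34-ps1, chr6:71124610-71124963) and 62.1% for Rpl35. In all, copies held over 50% of the sum for 11 members and over 10% for 25. The sequences show how little separates them. Below, each gene is set against its copy over the 30 coding bases around a difference, in the sense of the mRNA, with the bases that differ in capitals.
Rps7: atcgTgaagcccaatggcgagaagccGgac
Gm6472: atcgGgaagcccaatggcgagaagccAgac
Rpl34: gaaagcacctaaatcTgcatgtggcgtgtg
Rpl34-ps1: gaaagcacctaaatcCgcatgtggcgtgtg
Rps25: GacatacgacaagctctgtaaggaggttcC
Rps25-ps1: AacatacgacaagctctgtaaggaggttcT
Rps12: gctgaagaccgccctCatccacgatggcct
Rps12-ps9: gctgaagaccgccctTatccacgatggcct
Rps7 and Gm6472 differ at 3 of 582 coding bases, Rpl34 and Rpl34-ps1 at 2 of 351, Rps25 and Rps25-ps1 at 4 of 375, and Rps12 and Rps12-ps9 at 2 of 396. The reference genome is that of C57BL/6J, whereas the mice were FVB, and whether FVB carries the same bases at these positions was not tested.

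Adding the copies back changed the levels of several genes. Rps7 alone was 19.2 to 67 TPM, and with its copies it was 843 TPM in Null_HFD 2 to 2255 TPM in Null_HFD 3, near the middle of the family. Over all members, the lowest mean rose from 0 to 77.3 TPM and the median from 968 to 1099 TPM, and only Rpl32 and Rps13 stayed under 100 TPM. For Rps13, Rps16 and Rps27 the copies did not even out the level. Rps13, whose row is at 0 in 7 libraries, came to between 14.9 and 141 TPM with its copies. Rps16 with its copies ran from 25.6 TPM in WT_LFD 1 to 1838 TPM in Null_HFD 3, and in WT_HFD 2 it came to 1158 TPM against 753 TPM for its own row. Rps27 kept nearly the values of its own row. Rpl32 has no copy in the file by this rule, so summing could not change its level.

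**Figure D3:**
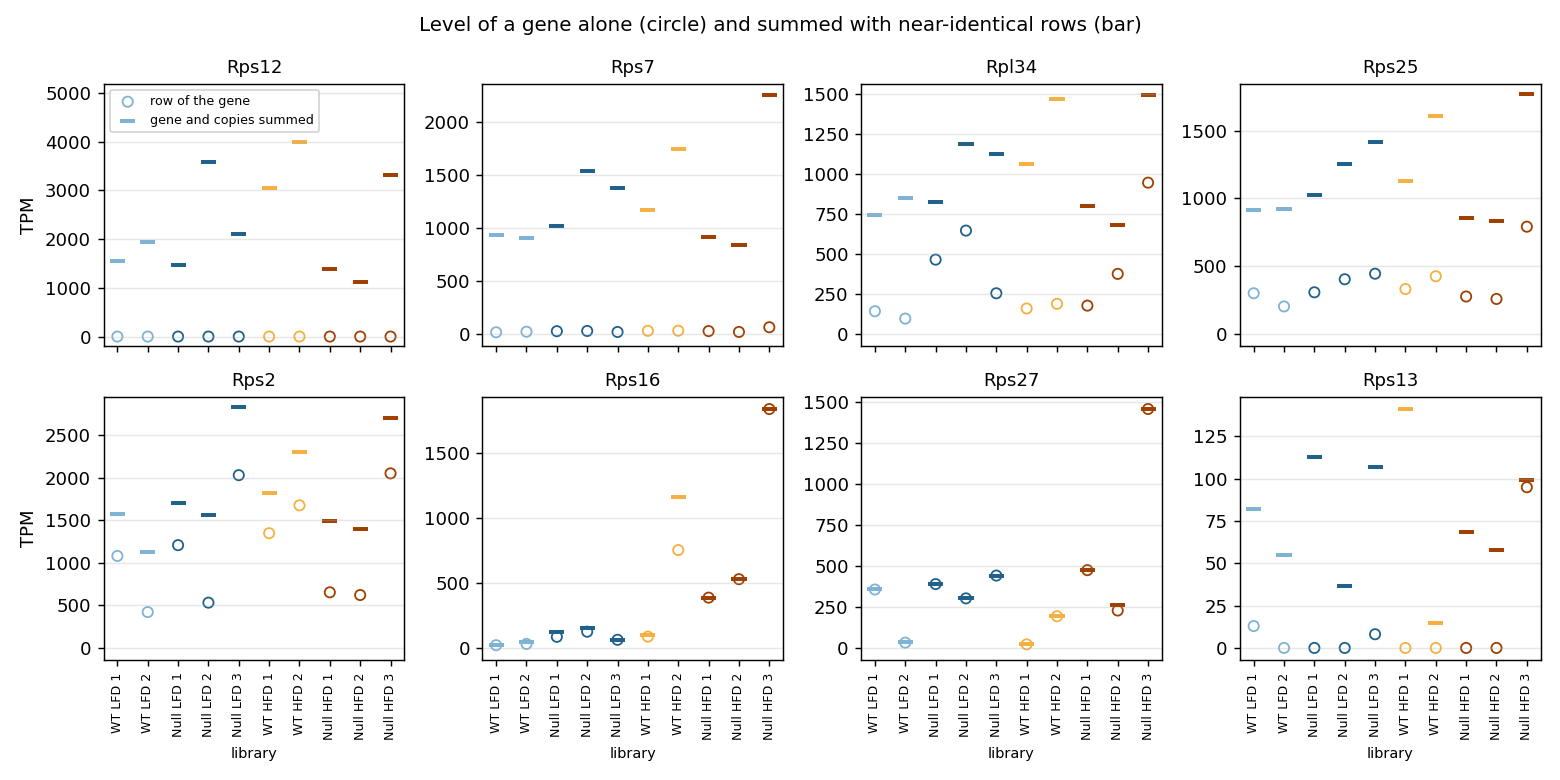
TPM of 8 ribosomal protein genes in each library, for the gene's own row (circles) and for the gene summed with its near-identical copies (bars), coloured by group, each panel with its own linear axis. Rps12, Rps7 and Rps25 lie lower alone than summed with their copies, while Rps16, Rps27 and Rps13 remain uneven.

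To see how far single genes departed from the family, the median log2 value of the 75 genes was subtracted in each library. The SD of the remaining value over 10 libraries had a median of 0.177 log2 units, so most genes kept their place in the family in every library. Rps3 (SD 0.0776) and Rplp0 (0.0883) were among the steadiest, and Rps3 is also among the genes with the least shared coding sequence. Rplp0 forms the base of the ribosomal stalk and is in common use as a reference gene for quantitative PCR. It nevertheless ran from 910 TPM in WT_LFD 2 to 2801 TPM in Null_HFD 3, so its steadiness was relative to other ribosomal protein genes and not absolute.

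The SD exceeded 0.5 for 7 genes: Rps13 (2.13), Rps16 (1.82), Rps27 (1.62), Rpl32 (1.23), Rpl34 (0.796), Rps2 (0.638) and Rps29 (0.549). Of these, 6 have copies in the file. With copies added, Rpl34 dropped to 0.171 and Rps2 to 0.282. The other 5 stayed over 0.5, although Rps13 fell to 1.09. Of these 5, Rpl32 has no copy and the copies of Rps29 were at 0 in every library, so summing could not change their levels. The SD with copies was taken around the library median of the summed levels of all 76 genes, Rps12 included. It therefore changed for genes without copies too, falling in Rps3 (0.0776 to 0.0634) and rising in Rps20 (0.176 to 0.2). The SD was lower with copies for 50 of 75 genes, a count that does not separate the copies from this change of reference.

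**Figure D4:**
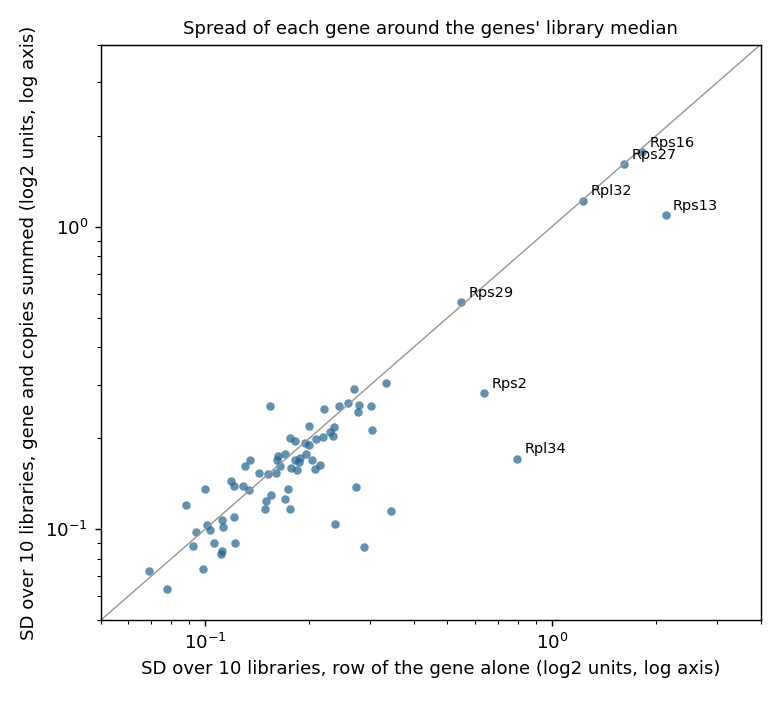
SD over 10 libraries of each gene's log2 level around the family's library median, for the gene's own row (horizontal) and for the gene with its copies summed (vertical), both log axes, with 1 point per gene and a line of equality. On the vertical axis that median was taken again over the summed levels of all 76 genes. Rpl34, Rps2 and Rps13 fall below the line, Rps13 still at 1.09, and Rps16, Rps27, Rpl32 and Rps29 lie on or near it. Rpl32 and Rps29 had no copy with a level above 0 to add.

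Because the family moved together, the start sites were examined for what they share. RefSeq promoter windows (GRCm38.p6, 250 bases before to 50 after an annotated start) were matched by symbol for 56 of the 76 genes, 66 windows in all. A run of at least 8 C or T within 15 bases of the start was found in 26 windows, or 39.4%, against 12% of 32851 windows of all genes. The 30 bases around the start are shown for a selection of the genes with such a run, the run in capitals. Among them are Rps6, whose product is the substrate of S6 kinase, and the stalk gene Rplp2. Some genes with longer runs than these, such as Rpl34 (18 bases), are not shown.
Rpl7a, chr2:26910792-26910821, plus strand: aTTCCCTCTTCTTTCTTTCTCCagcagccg
Rpl27a, chr7:109519180-109519209, plus strand: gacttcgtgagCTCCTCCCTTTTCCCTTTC
Rpl35, chr2:39005117-39005146, minus strand: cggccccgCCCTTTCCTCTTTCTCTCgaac
Rpl15, chr14:18270972-18271001, minus strand: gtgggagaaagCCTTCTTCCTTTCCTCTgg
Rps10, chr17:27635230-27635259, minus strand: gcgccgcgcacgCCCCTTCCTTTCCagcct
Rps18, chr17:33955651-33955680, minus strand: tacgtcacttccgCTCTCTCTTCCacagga
Rplp2, chr7:141447636-141447665, plus strand: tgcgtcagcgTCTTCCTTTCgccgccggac
Rps6, chr4:86857353-86857382, minus strand: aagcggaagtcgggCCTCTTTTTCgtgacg
Rps27, chr3:90213634-90213663, minus strand: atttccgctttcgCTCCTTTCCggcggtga
The core of the ETS family site, CGGAAG on either strand of the 300 bases, was in 62.1% of the ribosomal windows against 16.9% of all. The GC box GGGCGG was in 60.6% against 35.7%, and AAGATGG, a core of the YY1 motif, in 16.7% against 6.34%. The TATA box TATAAA was in 9.09% against 13.6%. These are matches of letters and show neither binding nor activity.

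The effect of genotype was asked for within each diet and averaged over both. On the low-fat diet, 73 of 75 ribosomal protein genes were higher in FAP-/- than in wild-type libraries, with a median difference of 0.492 on the log2(TPM + 1) scale. Over all 16932 genes tested, 66.9% were higher and the median was 0.146. For 57 of the 75 genes, every Null_LFD library lay above both WT_LFD libraries, which held for 19.1% of all genes, and no member lay wholly below (6.3% of all genes). No gene of any kind passed the test (limma, adjusted p at most 0.05, 0% of genes called), and the lowest adjusted p among members was 0.949. At an unadjusted p under 0.05 there were 2 members, Rpl34 and Rpl3, or 2.67% against 4.43% of all genes. The low-fat libraries held few lymph node transcripts (23.7 to 36.5 TPM). Luminal epithelial markers summed to 654 and 1302 TPM in WT_LFD and 1720 to 3209 TPM in Null_LFD. Within that list, the milk gene Csn3 was 223 and 63.1 TPM against 1306, 1059 and 358 TPM. Csn2, Wap, Elf5 and Epcam were also higher without overlap. Esr1 was wholly lower in Null_LFD, and Krt8, Krt18, Krt19, Cdh1, Pgr and Prlr overlapped. Skeletal muscle markers summed to 1502 and 2126 against 2533 to 7443 TPM, and cell cycle genes reached 1035 TPM in Null_LFD 3. The 8 macrophage markers in the file summed to 533 and 579 TPM in WT_LFD and 615 to 959 TPM in Null_LFD. Singly, Cd68, Csf1r, Trem2 and Cd14 were higher in Null_LFD without overlap, while Lyz2, Mrc1, Cd163 and Itgam overlapped. Mitochondrially encoded genes took 10.6% and 13.8% of TPM in WT_LFD and 6.28% to 9.19% in Null_LFD, also without overlap. Their part in the result was not tested.

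The 2 genes with the smallest p in this comparison both have copies in the file. Rpl34, of the large subunit, was 144 and 97.9 TPM in WT_LFD and 466, 647 and 256 TPM in Null_LFD. The groups did not overlap, and the difference was 1.84 (SE 0.62, limma adjusted p = 0.949). Its copy Rpl34-ps1 was 603 and 753 TPM in WT_LFD against 356, 538 and 865 TPM in Null_LFD. With the copies summed, the difference in Rpl34 was 0.37. Rpl3, which lines the peptidyl transferase centre, was 359 and 335 TPM in WT_LFD and 557, 715 and 746 TPM in Null_LFD, again without overlap. The difference was 0.94 (SE 0.41, limma adjusted p = 0.949), and 0.70 with copies.

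Several members are named here for their known roles. Rps6, the target of S6 kinase, was 1059 and 1128 TPM in WT_LFD and 1199, 1552 and 1664 TPM in Null_LFD, a difference of 0.42 (SE 0.40). For the stalk proteins, the differences were 0.69 (SE 0.45) in Rplp0, 0.61 (SE 0.52) in Rplp1 and 0.08 (SE 0.32) in Rplp2. Rpsa, which also occurs in the literature as the laminin receptor, differed by 0.42 (SE 0.47), and Rps27a, made as a fusion to ubiquitin, by 0.55 (SE 0.41). Rpl22, dispensable for the ribosome in most tissues and needed for T-cell development, differed by 0.16 (SE 0.35). None of these passed the test (limma adjusted p of at least 0.949).

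On the high-fat diet, the family did not lean one way. Of the 75 genes, 34 were higher in FAP-/- libraries (45.3%, against 52.1% of all genes), and the median difference was -0.0211 against 0.0164 over all genes. The test called 0 members and 2 genes in all (0.0118%), and 1 member, Rps27, had an unadjusted p under 0.05 (1.33% of members against 3.82% of all genes). Every Null_HFD library lay above both WT_HFD libraries for Rps27 alone (7.73% of all genes) and below them for Rpl32 alone (7.78% of all genes). Both groups contained a library with lymph node markers. Without WT_HFD 2 and Null_HFD 3, only 14 members were higher, the median was -0.248 (0.0718 over all genes), and both remaining Null_HFD libraries lay below the remaining WT_HFD library for 56 members, against 26.7% of all genes. Leaving out Null_HFD 3 alone gave a median of -0.458.

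Rps27, a zinc-binding protein of the small subunit, was listed at 21.7 and 193 TPM in WT_HFD and at 474, 228 and 1456 TPM in Null_HFD. The difference was 3.03 (SE 1.15, limma adjusted p = 1), and it was 1.48 without WT_HFD 1. On the low-fat diet the gene was also uneven within a group, at 356 and 32.3 TPM in WT_LFD against 389, 302 and 441 TPM in Null_LFD. Its 252 coding bases are identical to those of Rps27rt, a retrogene listed at 0 in 7 libraries and at no more than 33.1 TPM. Rpl32 was 38.3 and 57.6 TPM in WT_HFD and 33.5, 37.1 and 31.2 TPM in Null_HFD, a narrow gap at a low level for this family. In Null_LFD 3, Rpl32 was at 321 TPM.

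Averaged over diets, 70 of 75 members were higher in FAP-/- libraries, with a median of 0.225 against 0.0836 and 63.5% over all genes. The 5 that were lower were Rpl22, Rpl32, Rps24, Rpl5 and Rpl17. No member and no other gene passed the test (0% called, lowest adjusted p among members 0.98). Members with an unadjusted p under 0.05 numbered 4 (5.33%, against 4.19% of all genes): Rpl34 (difference 1.51, SE 0.44), Rps27 (2.40, SE 0.82), Rps16 (1.61, SE 0.62) and Rpl3 (0.68, SE 0.29). With copies summed, the difference in Rpl34 was -0.02, in Rps27 2.37, in Rps16 1.32 and in Rpl3 0.34. The median of the family was 0.114 without WT_HFD 2 and Null_HFD 3, against 0.113 over all genes, and 0.021 without Null_HFD 3 alone.

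The effect of diet was taken within each genotype. In wild-type mice, 72 of 75 members were higher on the high-fat diet, with a median difference of 0.548 against 0.197 and 67.1% of genes over the whole table. Both WT_HFD libraries lay above both WT_LFD libraries for 64 members, 39 of the large and 25 of the small subunit, against 33.7% of all genes, and none lay wholly lower (11.5% of all genes). No member and no other gene passed the test (0% called, lowest adjusted p among members 0.761), and 2 members, Rps16 and Rpl5, had an unadjusted p under 0.05 (2.67% against 5.61% of all genes). Rpl32, Rps13 and Rps27 were lower on the high-fat diet. Without WT_HFD 2, the library with lymph node markers, the median was 0.314 (0.102 over all genes) and 70 members were higher. WT_HFD 1 then lay above both low-fat libraries for 64 members, against 44.1% of all genes. Lymph node markers summed to 30.9 and 36.5 TPM in WT_LFD, so WT_HFD 1, at 43.6 TPM, was also above both. Sums of other marker lists also differed between these groups without overlap. Luminal epithelial markers summed to 654 and 1302 TPM in WT_LFD and 1338 and 1747 TPM in WT_HFD. Within that list, Csn3, Wap, Elf5 and Epcam were higher without overlap. Pgr was wholly lower, at 18.5 and 13.9 against 3.16 and 4.47 TPM, and the remaining luminal markers overlapped. Macrophage markers summed to 533 and 579 against 664 and 943 TPM, endothelial markers to 292 and 337 against 352 and 371 TPM, and cell cycle genes to 130 and 137 against 139 and 198 TPM. The mitochondrially encoded share was 10.6% and 13.8% in WT_LFD and 5.91% and 9.76% in WT_HFD. Their part in the result was not tested.

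Rpl5 binds 5S ribosomal RNA and, when ribosome assembly is disturbed, the p53 regulator Mdm2. It was 784 and 1081 TPM in WT_LFD and 1958 and 2436 TPM in WT_HFD, without overlap. The difference was 1.25 (SE 0.47, limma adjusted p = 0.761). Its copy Gm15500 was 566 and 361 TPM in WT_LFD and 151 and 375 TPM in WT_HFD, and with copies summed the difference in Rpl5 was 0.80. Rps26, which contacts mRNA at the exit channel, was 534 and 517 TPM in WT_LFD and 756 and 1345 TPM in WT_HFD (difference 0.94, limma adjusted p = 0.761). That difference was 0.53 without WT_HFD 2.

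In FAP-/- mice, 40 members were higher and 35 lower on the high-fat diet, with a median of 0.00892 against 0.0432 over all genes, of which 54.9% were higher. No member passed the test and 1 gene did (0.00591%). The groups were without overlap for only Rps16 and Rps29, both higher on the high-fat diet (6.6% of all genes, and 4.49% lay wholly lower), and 1 member, Rps16, had an unadjusted p under 0.05 (1.33% against 6.67% of all genes). The median rested on Null_HFD 3. Without it and WT_HFD 2, 2 members were higher and the median was -0.421, against 0.0233 over all genes, and both remaining Null_HFD libraries lay below all 3 Null_LFD libraries for 51 members, against 8.81% of all genes. Some marker lists also separated these libraries. Luminal epithelial markers summed to 1088 and 903 TPM in those Null_HFD libraries and 1720 to 3209 TPM in Null_LFD. Mature adipocyte markers summed to 44880 and 47519 against 23889 to 36877 TPM, and lymph node markers to 44.7 and 46.1 against 23.7 to 33 TPM. Within the lymph node list, Ccl21a was 13.3 and 15.5 TPM against 1.17, 1.23 and 1.31 TPM. Cd79a and Ccr7 were also higher without overlap, at no more than 1.9 TPM, and the remaining lymph node markers overlapped. Macrophage and endothelial markers overlapped. The part of these differences in the result was not tested.

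Averaged over genotypes, 71 members were higher on the high-fat diet with a median of 0.266, against 63.4% of genes and 0.11. The test called 0 members and 0 other genes (0%), and 2 members, Rps16 and Rpl5, had an unadjusted p under 0.05 (2.67% against 9.69% of all genes). The direction of the median depended on the libraries with lymph node markers: it was 0.0571 without Null_HFD 3 and -0.0487 without both, with 25 members higher. The within-genotype comparisons share libraries with the within-diet ones, so their values are not independent of each other.

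Rps16, a small subunit protein near the decoding site, had the smallest p of the family in all diet comparisons. It was 21.1 and 30.8 TPM in WT_LFD and 85.6, 125 and 62.6 TPM in Null_LFD, and 87.1 and 753 TPM in WT_HFD and 387, 529 and 1838 TPM in Null_HFD. The high-fat libraries were above the low-fat libraries except WT_HFD 1, which lay within the Null_LFD range. Averaged over genotypes, the difference was 3.16 (SE 0.62, limma adjusted p = 0.513), and it was 2.04 without WT_HFD 2 and Null_HFD 3. With its copies summed it was 3.04. Rps16-ps2, identical over the 438 coding bases, was 405 TPM in WT_HFD 2 and at most 34.1 TPM elsewhere. In every library except Null_HFD 3, its row lay below the 968 TPM of the median member. Rps29, a zinc-binding protein of the small subunit with 56 codons, was 678 and 501 TPM in WT_LFD, 978, 979 and 1120 TPM in Null_LFD, 693 and 1718 TPM in WT_HFD, and 1227, 1134 and 4669 TPM in Null_HFD. Its diet difference in FAP-/- mice was 0.87 and dropped to 0.20 without Null_HFD 3.

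Whether the genotype difference itself differed between diets was tested as an interaction. For 72 of 75 members the FAP-/- minus wild-type difference was smaller on the high-fat diet, with a median of -0.539, against -0.131 over all genes, of which 38.2% were above 0. No member and no other gene passed the test (0% called, adjusted p = 1 for the members), and 0 members had an unadjusted p under 0.05, against 4.14% of all genes. The smallest p among members belonged to Rpl5 (-1.11), Rpl10a (-0.92) and Rpl7a (-0.73). Rpl10a was 632 and 580 TPM in WT_LFD, 736, 1146 and 996 TPM in Null_LFD, 839 and 1116 TPM in WT_HFD, and 665, 598 and 1258 TPM in Null_HFD, so FAP-/- libraries were above wild type on the low-fat diet and 2 of 3 were below it on the high-fat diet. The largest and smallest interaction values were those of Rps13 (3.03) and Rps2 (-1.37), both with uneven copies. Without WT_HFD 2 and Null_HFD 3 the median was -0.706, with 4 members above 0.

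**Figure D5:**
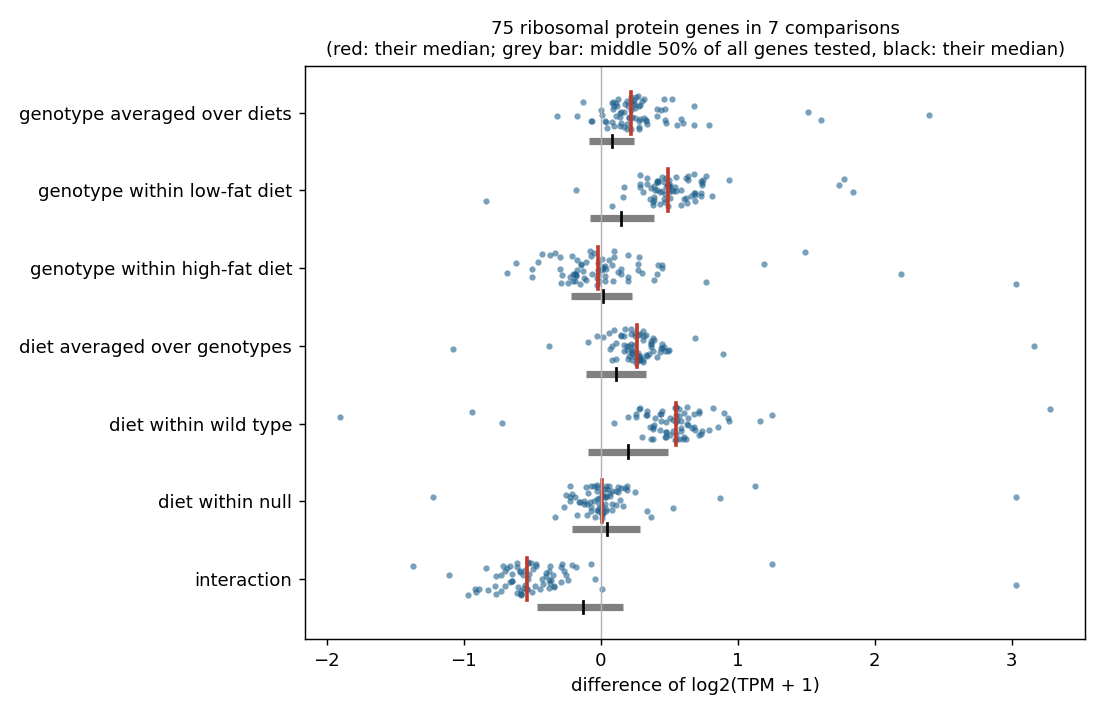
Difference of log2(TPM + 1) for 75 ribosomal protein genes (1 blue point each, scattered vertically for display) in 7 comparisons, with their median in red and, below, the middle 50% (grey bar) and median (black) of all 16932 genes tested. The members cluster to the right of the median of all genes for genotype on the low-fat diet (0.492) and diet in wild type (0.548), and to the left for the interaction (-0.539).

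After each library was centred on the family's median, single genes could be tested for departing from the rest. No member was called for genotype (2 genes of 16932, or 0.0118%, were) or for diet (0%). Rps16 came nearest, with a diet difference of 2.84 relative to the family (SE 0.46, limma adjusted p = 0.351). It was followed for diet by Rpl32 (-1.40, SE 0.57), Rps29 (0.57), Rpl15 (-0.35) and Rpl5 (0.37), each with a limma adjusted p of 0.955. For genotype the smallest p belonged to Rpl34 (1.25, SE 0.36), Rps27 (2.14, SE 0.64), Rps16 (1.35, SE 0.46), Rps29 (0.53) and Rpl3 (0.42), each with a limma adjusted p of 1.

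The medians of both subunits lay close together. On the low-fat diet the median genotype difference was 0.488 over 46 large-subunit and 0.512 over 29 small-subunit genes. The diet difference in wild type was 0.542 and 0.569, and the interaction -0.534 and -0.554. The large subunit held 3.71% and 3.54% of TPM in WT_LFD and 8.33% in Null_HFD 3, and the small subunit 2.27%, 1.99% and 6.21%.

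Other genes of the translation apparatus were taken from lists, chosen with the earlier results known. None of their members passed the test for genotype on either diet or averaged over diets. Of 25 elongation factors and other TOP mRNAs, 23 were higher in FAP-/- libraries on the low-fat diet (median 0.319) and 22 were higher on the high-fat diet in wild type (0.33). The elongation factor Eef1a1 was 7025 and 6934 TPM in WT_LFD and 7315, 9427 and 8432 TPM in Null_LFD, and reached 11409 TPM in Null_HFD 3. Gnb2l1, the ribosome-bound scaffold RACK1, was 783 and 628 TPM in WT_LFD and 899, 1153 and 1343 TPM in Null_LFD. Of 49 ribosome biogenesis genes, 45 were higher in FAP-/- libraries on the low-fat diet (0.357), and of 22 initiation factors 20 (0.304). Over all genes, 66.9% were higher in FAP-/- libraries on the low-fat diet (median 0.146). In wild type, 67.1% were higher on the high-fat diet (0.197). These counts rested in part on Null_LFD 3, the library with 1035 TPM of cell cycle genes. Without it, 32 of 49 biogenesis genes were higher on the low-fat diet (median 0.109), 15 of 22 initiation factors (0.0469) and 19 of 25 elongation factors and other TOP mRNAs (0.238), against 64.8% and 0.135 over all genes. The median of the ribosomal protein genes was then 0.445, with 73 of 75 higher.

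On the high-fat diet, the initiation and biogenesis lists did not follow the ribosomal protein genes. Of 49 biogenesis genes 38 were higher in FAP-/- libraries (0.207), and of 22 initiation factors 17 (0.158), where 34 of 75 ribosomal protein genes were. Over all genes, 52.1% were higher and the median was 0.0164. Without WT_HFD 2 and Null_HFD 3, 42 of 49 biogenesis genes (0.299) and 16 of 22 initiation factors (0.103) were higher. The share and median over all genes were then 57.8% and 0.0718. The differences between lists were not tested. Averaged over diets, Eif3j1, a subunit that assists initiation factor 3, had the smallest p of the initiation list at a difference of 0.54 (SE 0.15, limma adjusted p = 0.98). Gnl3l, a nucleolar GTPase, differed by 0.49 (SE 0.18, limma adjusted p = 0.98), and Gnl3l was 31.4 and 26.9 TPM in WT_LFD and 36, 49.8 and 58.7 TPM in Null_LFD.

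For genotype, the regulators were divided in direction. Of 20 genes, 11 were higher in FAP-/- libraries averaged over diets (median 0.0462), against 63.5% and 0.0836 over all genes. The smallest p among the 20 was that of Rps6kb1, encoding S6 kinase, which phosphorylates Rps6. Rps6kb1 was 66.3 and 63.7 TPM in WT_LFD, 58.2, 53.2 and 62.2 in Null_LFD, 71.6 and 70.2 in WT_HFD, and 43.4, 54.8 and 53.3 in Null_HFD. No FAP-/- library reached the wild-type libraries of its diet, and the difference was -0.33 (SE 0.12, limma adjusted p = 0.98). Mtor differed by 0.02 (SE 0.13) and Larp1 by 0.22 (SE 0.13). For diet, 16 of 20 regulators were higher on the high-fat diet averaged over genotypes (median 0.242, against 0.11 over all genes) and 16 in wild type (0.318 against 0.197). Over all genes, 63.4% and 67.1% were higher. None of the regulators passed the test, and 3 and 2 of 20 had an unadjusted p under 0.05, against 9.69% and 5.61% of all genes. Without WT_HFD 2 and Null_HFD 3, 19 regulators were tested and the medians were 0.165 and 0.139, against 0.0637 and 0.102 over all genes. Among paralogs, Rpl22l1, which can replace Rpl22, was 156 and 117 TPM in WT_LFD and 158, 175 and 302 TPM in Null_LFD, a difference of 0.66 averaged over diets (SE 0.32, limma adjusted p = 0.98). Of 31 proteasome subunits, 27 were higher averaged over diets (0.116), and of 10 chaperones 8 (0.225), beside 63.5% of all genes. Without Null_LFD 3, these were 20 of 31 (0.042) and 8 of 10 (0.0625), beside 63.2% of all genes.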

How the data were processed

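The file deposited by the authors holds 1 value per gene symbol for each of the 10 libraries, in log2(TPM + 1), a unit inferred from the values, which came to between 946103 and 954463 TPM in each library. The submitters' processing notes name kallisto, limma and the build GRCm38, and the sources used here give no versions or settings. TPM keeps no read number, so the depth is unknown and no counting interval was computed. A row without a symbol (at most 0.0108% of TPM) was left out.

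The 16932 genes that reached 1 TPM in 2 or more libraries, 75 of them members, were fitted with limma 3.58.1 in R 4.3.3 as 4 group means over all 10 libraries, with a variance trend, two-sided tests and Benjamini-Hochberg adjustment over all genes. A fold change on this scale understates the change of low genes. Differences are FAP-/- minus wild type or high-fat minus low-fat, and the interaction is the high-fat genotype difference minus the low-fat one. The fit was tested on simulated data. Centred values had the library's median over the 75 members subtracted. Copies were rows of the file with at least 50% of their 31-base stretches in a member's transcripts (GENCODE M21, GRCm38), and their TPM was added to the member's. Promoters came from RefSeq (GRCm38.p6).

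The name rule for members and the gene lists were set with earlier results of these data known. Within the name rule, no member was taken or dropped by its expression value. Genes were named for their level, spread, smallest p or largest difference in each comparison, or known role, and some that this rule names are not reported here. The markers, Fap, the copies and genes outside the rule were named after their values were seen. Alternatives were median-of-ratios scaling, no filter or a mean of at least 5 TPM, a pseudocount of 0.1, no variance trend, sample weights, a replicate block, exclusion of mitochondrially encoded genes, summing of copies named as pseudogenes, each library left out in turn, and WT_HFD 2 and Null_HFD 3 left out together. Summing of copies by shared stretches, with and without those 2 libraries, was added after seeing the data.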

Additional observations from a re-analysis of the deposited data

How the results depend on the processing

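In the 7 comparisons, limma called 0 members under every alternative run. After centring on the members, 1 was called for diet with sample weights (0 otherwise), and 0 to 1 when single libraries were left out, the 1 without WT_HFD 1. The share of TPM in the members averaged 5.76% in WT_LFD and was 6.55% without mitochondrially encoded genes, 6.35% with named pseudogene copies and 6.89% with copies by shared stretches. With the last, it was 9.68% in Null_LFD (8.16% as reported) and 10.4% in WT_HFD (8.54%).

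The genotype difference in Rpl34 turned negative with named copies and with copies by shared stretches (both -0.02 averaged over diets and -0.42 on the high-fat diet), and with copies summed while WT_HFD 2 and Null_HFD 3 were left out (-0.07 and -0.52). Its own row stayed positive without those libraries (1.26 and 0.68). Its copy Rpl34-ps1 differed by -0.74 averaged over diets. Rps16 on the high-fat diet ran from -0.06 (without WT_HFD 1) to 3.04 (without WT_HFD 2); the cause was not tested.

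Leaving out single libraries, the median over members ran from 0.021 to 0.344 for genotype averaged over diets, 0.413 to 0.622 on the low-fat and -0.458 to 0.153 on the high-fat diet, 0.0571 to 0.386 for diet averaged over genotypes, 0.314 to 0.751 in wild type and -0.421 to 0.236 in FAP-/-, and -0.946 to -0.32 for the interaction. With sample weights it was 0.0781, 0.492, -0.332, 0.132, 0.548, -0.29 and -0.816 in that order. With the replicate block, it was -0.0112 for genotype averaged over diets, 0.245 on the low-fat and -0.297 on the high-fat diet. Whether the replicate numbers pair the samples was not settled. Deviations of same-numbered libraries from their group means correlated at -0.346 to 0.412. With 2 or 3 libraries in a group these deviations depend on each other, so the correlations cannot decide it. Depth could not be judged from TPM.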

Other observations

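A ribosomal gene outside the name rule ran through the libraries much as the members did. Fau, which encodes a ubiquitin-like fusion to a small-subunit protein, was 711 and 709 TPM in WT_LFD, 824, 991 and 885 TPM in Null_LFD, 888 and 1507 TPM in WT_HFD, and 657, 790 and 2298 TPM in Null_HFD. Fau was highest in Null_HFD 3, and it did not pass the test for genotype averaged over diets (limma adjusted p = 0.996).

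The rows Gm10243, Rpl35a-ps2, Rpl35a-ps3, Rpl35a-ps4 and Rpl35a-ps6, copies of Rpl35a, had the same values in every library, from 32.3 TPM in WT_LFD 2 to 139 TPM in Null_HFD 3. Rps12-ps9, which differs from Rps12 at 2 coding bases, was 1735 TPM in Null_LFD 2 and 34.3 TPM in Null_LFD 3, libraries of the same group. Rps12l1 was 329 TPM in WT_LFD 2 and 25.7 TPM in WT_LFD 1.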
